A study of Populus tremula x Populus tremuloides with 22 samples.

Results

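The 8 poplar genes listed as the cellulose synthases of the primary wall, CesA1-A, CesA1-B, CesA3-A, CesA3-B and CesA6-A to CesA6-D, were followed through the stem transcriptome of hybrid aspen that overexpressed an Arabidopsis LBD gene. They were chosen by their identifiers, with earlier results of these data known, and are 8 of the 34699 genes counted. All 8 were found in the 22 libraries and passed the filter on low counts. The libraries came from stem internodes of 3-week-old hybrid aspen (Populus tremula x Populus tremuloides) kept in a greenhouse under the condition labelled LD. Of these, 9 were of LBD11-OE trees (lines LBD11-OE-1, LBD11-OE-2 and LBD11-OE-14, 3 libraries each), 8 of LBD4-OE trees (LBD4-OE-11 with 3, LBD4-OE-14 with 2 and LBD4-OE-17 with 3) and 5 of wild-type (WT) trees. Per the series title, the Arabidopsis LBD4 or LBD11 gene was overexpressed specifically in the xylem, the wood. The levels of the transgenes were not analysed here. The genotype label of LBD11-OE-14 gives the number 3 and its title 14, and the title was used. The labels do not say whether replicates were separate trees, so p-values speak only of the spread among these libraries, which may be technical.

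Cellulose is made at the plasma membrane by rosette-shaped complexes that hold several different cellulose synthase (CESA) proteins at once. In Arabidopsis, the complexes of growing cells with primary walls need CESA1, CESA3 and a protein of the CESA6 type, whereas the complexes that thicken the walls of wood cells use CESA4, CESA7 and CESA8. In a growing stem, primary walls are laid down in the cambium and in expanding cells on either side of it, and secondary walls in maturing xylem and fibres. LBD4 and LBD11 belong to the LATERAL ORGAN BOUNDARIES DOMAIN family of plant transcription factors.

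Poplar carries more than 1 gene for each of these 3 classes. The CesA1 class is Potri.018G029400 (CesA1-A, chromosome 18, 2173668 to 2180726, minus strand) and Potri.006G251900 (CesA1-B, chromosome 6, 25054862 to 25062141, plus strand). The CesA3 class is Potri.001G266400 (CesA3-A, chromosome 1, 28119651 to 28127176, plus strand) and Potri.009G060800 (CesA3-B, chromosome 9, 6287714 to 6295547, plus strand). The CesA6 class has 4 genes. They are Potri.013G019800 (CesA6-A, chromosome 13, 1251514 to 1258532, plus strand), Potri.005G027600 (CesA6-B, chromosome 5, 1755843 to 1762601, plus strand), Potri.005G087500 (CesA6-C, chromosome 5, 6096075 to 6104061, minus strand) and Potri.007G076500 (CesA6-D, chromosome 7, 10071326 to 10078920, plus strand). Coordinates are as in the files, whose identifiers carry the suffix v4.1 and whose build is not given in the sources used here. Gene names are those of the list. The files pair no identifier with a name, and neither names nor sequences were checked here. Reads of similar copies could have been split between them in counting.

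Total counts per library ran from 23437445 to 41969957, and each of the 8 genes had 967 to 13943 reads per library. WT replicate 3 differed from the other WT libraries by 48.5 to 66.4 in chi-square over the degrees of freedom, taken across the counts of genes, where the other WT pairs were at 5.78 to 24.9. A group of 9 genes outside the list, all lower in the smaller set, separated WT replicate 3, LBD4-OE-11 and LBD11-OE-2 (7 libraries) from the other 15. The labels name no batch. Values without WT replicate 3 are given beside the construct comparisons whose calls it changed. In whole stem tissue, a higher count may mean more cells of a type or more RNA per cell, and these cannot be told apart.

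The 8 genes stood at different levels. Scaled to library size (CPM, read counts over the TMM-scaled library total) and divided by the length of the gene in kb, introns included, the mean level in LBD11-OE stems was 43.8 CPM per kb for CesA6-C and 40.1 for CesA3-B. On the same scale CesA6-D was at 36.0, CesA1-B at 33.9, CesA1-A at 32.9, CesA3-A at 17.4, CesA6-A at 11.2 and CesA6-B at 7.15 CPM per kb. In WT stems the order was different at the top, with CesA3-B at 34.9 CPM per kb, CesA6-D at 29.7, CesA1-B at 27.7, CesA6-C at 24.5 and CesA1-A at 23.9. CesA3-A, at 11.2 CPM per kb, CesA6-A, at 8.37, and CesA6-B, at 5.11, were the 3 lowest in WT too. The CesA6 class thus held both the gene with the highest level in LBD11-OE stems and the 2 with the lowest. LBD4-OE stems lay between, with CesA3-B (38.7 CPM per kb), CesA6-D (35.4) and CesA6-C (33.5) at the top.

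**Figure D1:**
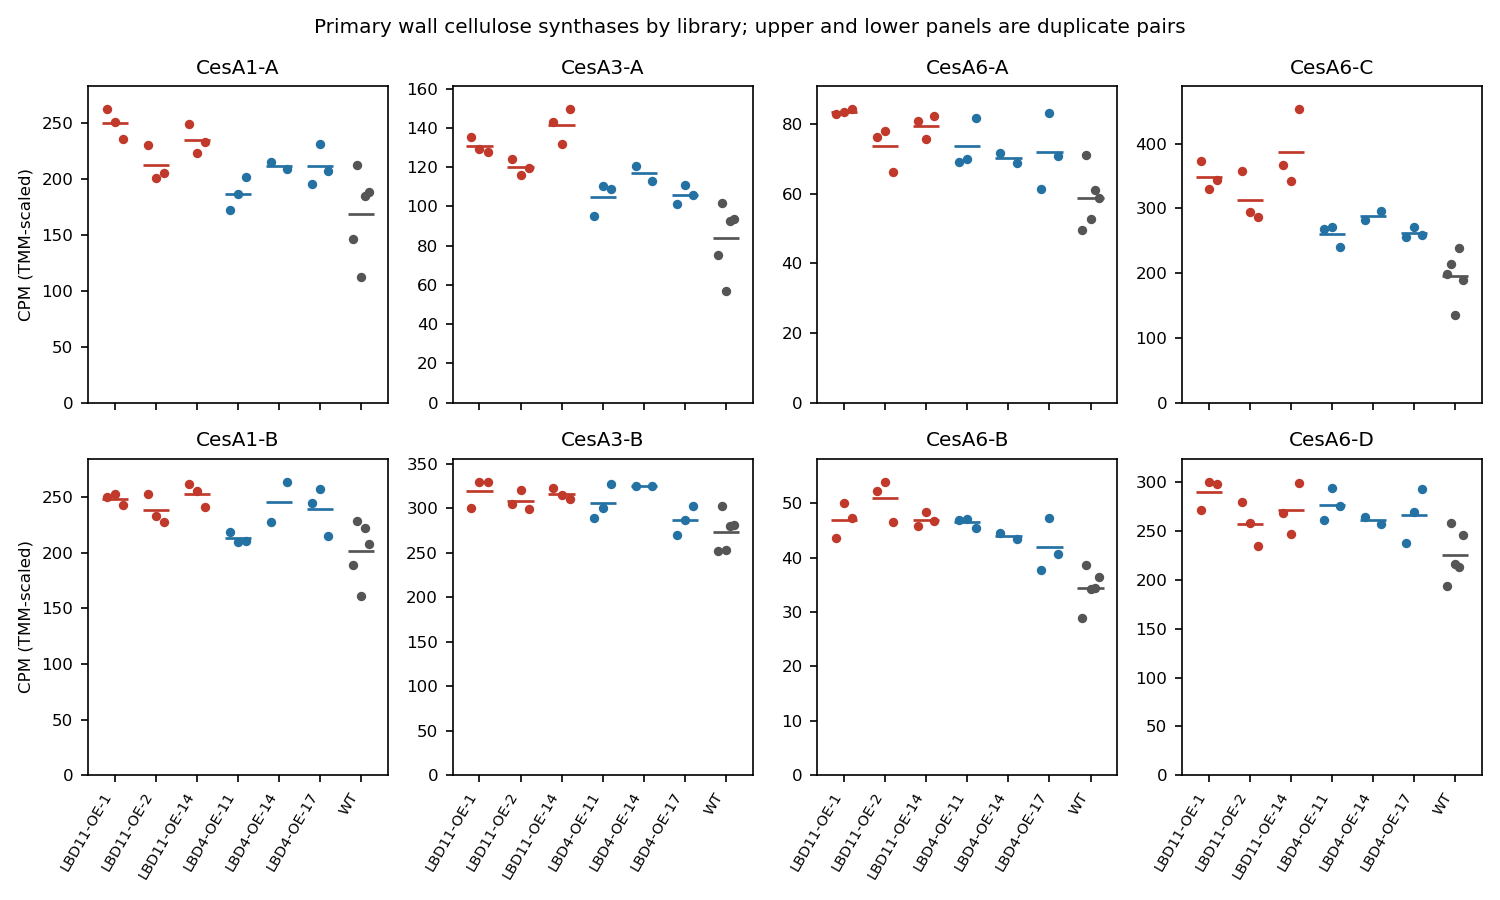
Each panel shows 1 gene, with the TMM-scaled CPM of every library (points) and the mean of each line or of WT (bars), from LBD11-OE lines through LBD4-OE lines to WT. The WT mean is the lowest of the 7 groups in all 8 panels, with the widest gap for CesA6-C (350 CPM over the LBD11-OE libraries, 195 CPM over WT). For CesA1-B, LBD4-OE-11 was above WT by a log2 fold change of 0.071, and by 0.0017 without WT replicate 3.

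All 8 genes were higher in LBD11-OE than in WT stems. Their log2 fold changes ran from 0.20 to 0.84 with a median of 0.44, where the median over all 25626 genes tested was 0.0019. The largest rises were those of CesA6-C, 79.0% above WT, and CesA3-A, 55.7% above WT, and the smallest was that of CesA3-B, 14.9% above WT. By edgeR's quasi-likelihood test with Benjamini-Hochberg adjustment, 8 of 8 passed the adjusted p threshold of 0.05, and of all genes tested 16.1% were called higher. The construct fits treat libraries of the same line as independent, which can make their p-values too small. With line as a random block (limma voom) 8 of 8 passed, with 11.9% of all genes. The highest adjusted p there was 0.0253, for CesA3-B (limma voom).

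CesA6-C ranged from 286 to 453 CPM in the LBD11-OE libraries, with a median of 343 CPM, and stood at 198, 215, 136, 239 and 189 CPM in WT replicates 1 to 5. Every LBD11-OE library lay above every WT library, and the lowest LBD11-OE libraries were replicates 2 and 3 of line LBD11-OE-2. The log2 fold change was 0.84 ± 0.11 (SE, adjusted p = 2.27e-06 by edgeR), and 0.73 without WT replicate 3 (adjusted p = 3.79e-06 by edgeR). CesA6 proteins are the more exchangeable part of the complex in Arabidopsis, where several members of the class can stand in for each other. CesA6-D, named as the duplicate of CesA6-C, averaged 273 ± 23.6 CPM in LBD11-OE (SD, n = 9) and 226 ± 25.9 CPM in WT (SD, n = 5). Its log2 fold change was 0.28 ± 0.08 (SE, adjusted p = 0.00682 by edgeR), with overlapping groups. The 2 CesA6 genes with the fewest reads were raised as well. CesA6-B ran from 43.6 to 53.9 CPM in LBD11-OE with a median of 47.4 CPM, against 29.0, 38.6, 34.2, 34.4 and 36.4 CPM in WT replicates 1 to 5. The groups did not overlap, and the log2 fold change was 0.48 ± 0.07 (SE, adjusted p = 8.94e-06 by edgeR). CesA6-A averaged 78.9 ± 5.64 CPM in LBD11-OE and 58.7 ± 8.31 CPM in WT, with a log2 fold change of 0.43 ± 0.08 (SE, adjusted p = 2.36e-04 by edgeR).

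CesA3-A, a gene of the class in which Arabidopsis mutants resist the cellulose inhibitor isoxaben, ran from 116 to 149 CPM in LBD11-OE with a median of 129 CPM. In WT replicates 1 to 5 it stood at 75.2, 102, 56.8, 92.4 and 93.4 CPM. No library of either group reached into the other, and WT replicate 3 was the lowest of all. The log2 fold change was 0.64 ± 0.10 (SE, adjusted p = 2.17e-05 by edgeR), and 0.53 without WT replicate 3 (adjusted p = 2.46e-05 by edgeR). Its duplicate CesA3-B averaged 314 ± 11.4 CPM in LBD11-OE (SD, n = 9) and 274 ± 21.2 CPM in WT (SD, n = 5), for a log2 fold change of 0.20 ± 0.06 (SE, adjusted p = 0.0142 by edgeR). This was the smallest rise of the 8, and it missed the threshold without WT replicate 1 (log2 fold change 0.17, adjusted p = 0.0504 by edgeR).

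The CesA1 class, whose Arabidopsis counterpart is required in every primary wall complex, had smaller fold changes than CesA6-C and CesA3-A, a difference that was not tested. CesA1-A ran from 201 to 262 CPM in LBD11-OE with a median of 232 CPM, and stood at 147, 212, 112, 184 and 188 CPM in WT replicates 1 to 5. The groups overlapped through WT replicate 2. The log2 fold change was 0.46 ± 0.11 (SE, adjusted p = 0.00168 by edgeR) and 0.34 without WT replicate 3 (adjusted p = 0.00508 by edgeR). CesA1-B averaged 247 ± 11 CPM in LBD11-OE and 202 ± 27.2 CPM in WT, for a log2 fold change of 0.29 ± 0.08 (SE, adjusted p = 0.00519 by edgeR). In total 3 of the 8 genes, CesA3-A, CesA6-B and CesA6-C, had every LBD11-OE library above every WT library, as did 5.59% of all genes tested. Within the larger library set 8 of 8 genes passed, with 13.9% of all genes, and within the smaller set, where WT replicate 3 is the sole WT library and was taken to vary as the rest do, CesA1-A, CesA1-B, CesA3-A, CesA6-B and CesA6-C did, with 6.7% of all genes.

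**Figure D2:**
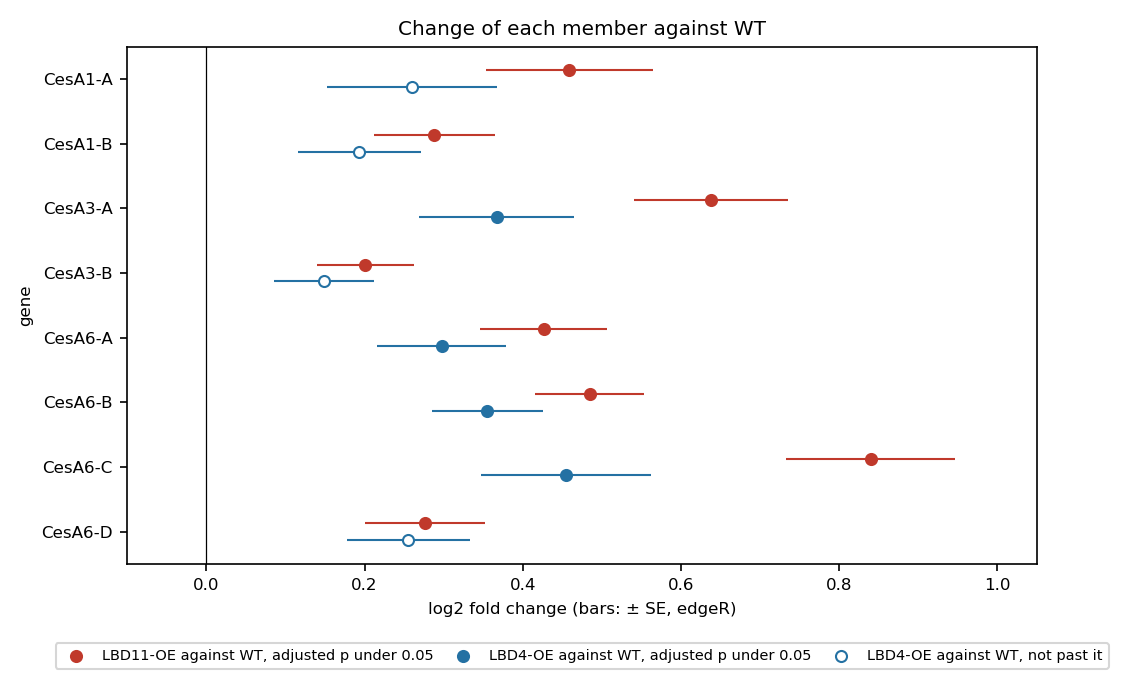
Log2 fold change (x axis) of each gene (y axis) in LBD11-OE and in LBD4-OE against WT, with bars of ± 1 SE from edgeR. Filled points passed the adjusted p threshold of 0.05. Every point lies above 0, at 0.20 to 0.84 for LBD11-OE and 0.15 to 0.45 for LBD4-OE, and CesA6-C has the highest value under both constructs, which were compared with the same WT libraries.

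In LBD4-OE stems 4 of the 8 genes were called higher than in WT, CesA3-A, CesA6-A, CesA6-B and CesA6-C, and of all genes tested 2.71% were called higher. With line as a random block (limma voom) CesA6-B alone passed (adjusted p = 0.0356), with 0.418% of all genes, and CesA6-C, CesA3-A and CesA6-A had adjusted p values of 0.0590, 0.0927 and 0.111. The log2 fold changes of the 8 ran from 0.15 to 0.45, with a median of 0.28, where the median of all genes was -0.0018. This comparison used the same WT libraries as that of LBD11-OE. CesA6-C ran from 240 to 296 CPM in LBD4-OE with a median of 270 CPM, all above the highest WT library at 239 CPM. Its log2 fold change was 0.45 ± 0.11 (SE, adjusted p = 0.0190 by edgeR). It was the sole member whose LBD4-OE and WT libraries did not overlap, as was the case for 1.11% of all genes tested.

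CesA6-B ran from 37.8 to 47.3 CPM in LBD4-OE with a median of 44.9 CPM, and 38.6 CPM in WT replicate 2 was the highest WT value. Only LBD4-OE-17 replicate 1 fell into the WT range. The log2 fold change was 0.36 ± 0.07 (SE, adjusted p = 0.00630 by edgeR), the lowest adjusted p of the 8 in this comparison. CesA3-A averaged 108 ± 7.70 CPM in LBD4-OE (SD, n = 8) and 84.0 ± 18 CPM in WT (SD, n = 5), with a log2 fold change of 0.37 ± 0.10 (SE, adjusted p = 0.0337 by edgeR). CesA6-A averaged 72.2 ± 7.10 CPM in LBD4-OE and 58.7 ± 8.31 CPM in WT, with a log2 fold change of 0.30 ± 0.08 (SE, adjusted p = 0.0369 by edgeR).

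The other 4 genes did not pass. CesA6-D had a log2 fold change of 0.26 ± 0.08 (SE, adjusted p = 0.0562 by edgeR), where LBD11-OE, set against the same WT libraries, was at 0.28. CesA1-A was at 0.26 ± 0.11 (SE, adjusted p = 0.152 by edgeR) and CesA1-B at 0.19 ± 0.08 (SE, adjusted p = 0.143 by edgeR). CesA3-B was at 0.15 ± 0.06 (SE, adjusted p = 0.164 by edgeR). Without WT replicate 3, CesA1-A was at 0.14 and CesA1-B at 0.12. The calls in LBD4-OE also rested on few libraries: without WT replicate 3, CesA6-B alone passed (adjusted p = 0.0143 by edgeR), and CesA6-C was at a log2 fold change of 0.35 (adjusted p = 0.0526 by edgeR), CesA3-A at 0.26 (adjusted p = 0.0851 by edgeR) and CesA6-A at 0.26 (adjusted p = 0.0982 by edgeR). Without WT replicate 3, 304 of 25753 genes tested were called higher, against 694 of 25626 with it. Leaving out WT replicate 1 or WT replicate 5 left 2 of the 8 past the threshold. So did leaving out, among LBD4-OE libraries, LBD4-OE-14 replicate 1 or replicate 2 of LBD4-OE-11 or LBD4-OE-17. The shares of all genes in those fits are not given here.

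Set directly against each other, LBD11-OE stems had more CesA6-C and CesA3-A than LBD4-OE stems, and 0 of the 8 genes were lower. Of all genes tested 8.08% were called higher and 8.88% lower under LBD11, so 0 lower among 8 is near the share over all genes. CesA6-C averaged 350 ± 48.9 CPM in LBD11-OE (SD, n = 9) and 268 ± 16.8 CPM in LBD4-OE (SD, n = 8), for a log2 fold change of 0.39 ± 0.09 (SE, adjusted p = 0.00347 by edgeR). CesA3-A averaged 131 ± 10.7 CPM in LBD11-OE and 108 ± 7.70 CPM in LBD4-OE, for a log2 fold change of 0.27 ± 0.08 (SE, adjusted p = 0.0232 by edgeR). For both genes the ranges of the constructs overlapped, and 0 of the 8 genes had every LBD11-OE library above every LBD4-OE library, which held for 1.8% of all genes tested. CesA3-A missed the threshold with line as a random block (limma voom, adjusted p = 0.0604), without LBD11-OE-14 replicate 3 (adjusted p = 0.0504 by edgeR), within the smaller library set and without any of lines LBD11-OE-1, LBD11-OE-14, LBD4-OE-11 or LBD4-OE-17. CesA6-C passed with line as a random block (limma voom, adjusted p = 0.0140).

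The remaining 6 genes did not pass between the constructs. CesA1-A was at 0.20 ± 0.09 (SE, adjusted p = 0.139 by edgeR), and it passed without WT replicate 3, which enters the shared estimate of the spread (adjusted p = 0.0476 by edgeR). CesA6-A and CesA6-B were both at 0.13, CesA1-B at 0.09 and CesA3-B at 0.05. CesA6-D had the smallest difference, 0.02 ± 0.07 (SE, adjusted p = 0.877 by edgeR), with 273 ± 23.6 CPM in LBD11-OE and 269 ± 18.6 CPM in LBD4-OE, and its sign turned under 4 alternative settings.

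Each line was also compared with WT, in a fit of all 22 libraries with 7 group means. In LBD11-OE-1 all 8 genes were called higher than in WT, and 10.8% of the 26271 genes tested in the line comparisons were. The call of CesA3-B in LBD11-OE-1 (adjusted p = 0.0402 by edgeR) was lost when any of 8 single libraries was left out, and that of CesA1-B with any of 3. In LBD11-OE-14 all 8 were called as well, with 14% of all genes. In that line CesA3-B (adjusted p = 0.0475 by edgeR) lost its call when any of 18 single libraries was left out, and CesA6-D (adjusted p = 0.0423 by edgeR) with any of 7. The count in LBD11-OE-14 was 5 without its replicate 1, and 4 in a fit of LBD11-OE-14 and WT alone. The shares of all genes in those fits are not given here, so a general loss of calls cannot be told apart. In LBD11-OE-2 CesA3-A, CesA6-A, CesA6-B and CesA6-C were called, 4 of the 8, with 8.63% of all genes, and the call of CesA6-A was lost when any of 5 single libraries was left out. CesA6-C was the most raised in each of these lines, by a log2 fold change of 0.99 in LBD11-OE-14 (adjusted p = 3.22e-06 by edgeR), 0.83 in LBD11-OE-1 (adjusted p = 6.84e-05 by edgeR) and 0.68 in LBD11-OE-2 (adjusted p = 7.28e-04 by edgeR). CesA6-B had its highest value in LBD11-OE-2, 0.56 (adjusted p = 8.60e-05 by edgeR), against 0.44 in both other lines.

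**Figure D3:**
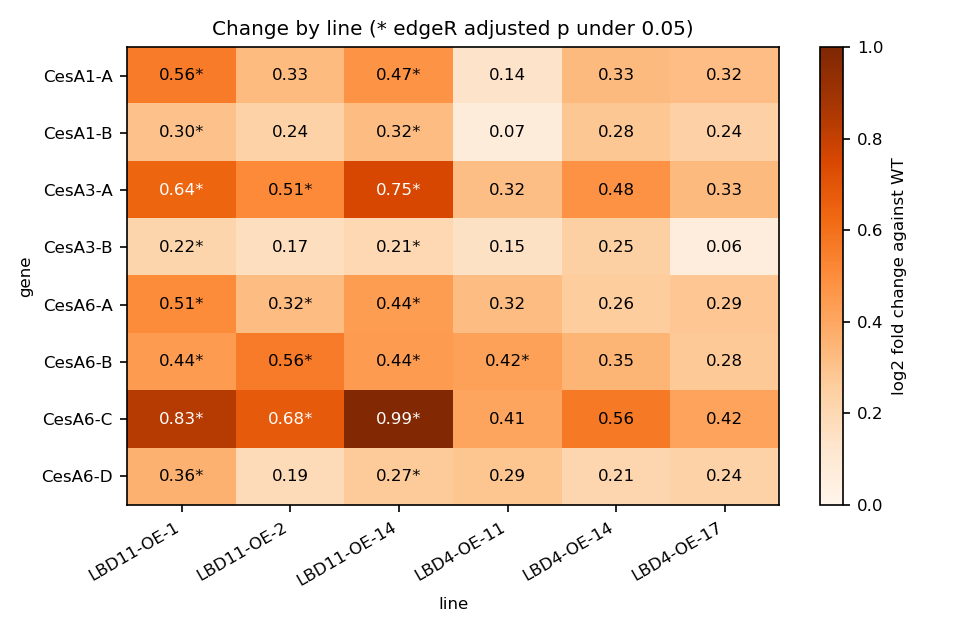
Log2 fold change against WT (colour and number in each cell) for the 8 genes (rows) in each of the 6 lines (columns), with an asterisk where the edgeR adjusted p was under 0.05. All cells are above 0. Asterisks mark 8, 4 and 8 genes in LBD11-OE-1, LBD11-OE-2 and LBD11-OE-14, and CesA6-B in LBD4-OE-11.

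Among the LBD4-OE lines, LBD4-OE-11 had 1 called gene, CesA6-B, at a log2 fold change of 0.42 (adjusted p = 0.0123 by edgeR), where 1.19% of all genes were called higher. That call was lost without LBD4-OE-11 replicate 2. LBD4-OE-14 and LBD4-OE-17 had 0 called genes by edgeR, where 0.506% and 1.63% of all genes were called higher. In each of these 2 lines 7 of the 8 genes were higher at an unadjusted p under 0.05, as were 8.19% of all genes in LBD4-OE-14 and 9.02% in LBD4-OE-17. DESeq2 called 4 of the 8 in LBD4-OE-14, with 1.95% of all genes it tested, and 2 in LBD4-OE-17, with 2.88%. LBD4-OE-14 has 2 libraries. CesA6-C was the highest in both, at 0.56 in LBD4-OE-14 (adjusted p = 0.0607 by edgeR, and 0.0428 at 0.46 without WT replicate 3) and 0.42 in LBD4-OE-17 (adjusted p = 0.0770 by edgeR).

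A joint test asked for each gene whether the 3 lines with the same construct differed. By edgeR 0 of the 8 differed among the 3 LBD11-OE lines, with a lowest adjusted p of 0.554, and 0 among the 3 LBD4-OE lines, with a lowest adjusted p of 0.638. No gene of the 8 was past an unadjusted p of 0.05 in either test, and 1.36% and 0.194% of all genes passed. Such a p does not show that the lines were alike. WT was the lowest of the 7 groups for each of the 8 genes, and the share of all genes with WT lowest was not computed. For CesA1-B, LBD4-OE-11 was above WT by a log2 fold change of 0.071 with all libraries. Without WT replicate 3 this difference was 0.0017, and without both WT replicate 3 and LBD4-OE-11 replicate 1 it was -0.014. For CesA3-A and CesA6-C the full order of the means was LBD11-OE-14, LBD11-OE-1, LBD11-OE-2, LBD4-OE-14, LBD4-OE-17, LBD4-OE-11 and WT. Of the 6 neighbouring steps in that order the libraries were apart in 2 for CesA6-C, LBD4-OE-14 above LBD4-OE-17 and LBD4-OE-11 above WT. For CesA3-A they were apart between LBD11-OE-1 and LBD11-OE-2 and between LBD4-OE-14 and LBD4-OE-17. CesA1-A, CesA3-B and CesA6-D had 0 separated neighbours, and CesA1-B, CesA6-A and CesA6-B had 1 each. How often such steps are apart over all genes was not computed, so these counts are a description.

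In LBD11-OE against WT, the balance within 3 of the 4 duplicate pairs moved toward the first-named gene, in the CesA1 pair by a call that single libraries decided. The ratio of the read counts of both genes within a library does not depend on library scaling, and it was compared between constructs over 4 pairs and 3 comparisons. The p-values are from exact two-sided permutation tests, adjusted over these 12. Libraries of the same line are not independent, so the p-values are too small, and line means are given too.

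CesA3-A had 0.416 ± 0.037 reads per read of CesA3-B in LBD11-OE (SD, n = 9), 0.358 ± 0.021 in LBD4-OE (SD, n = 8) and 0.305 ± 0.047 in WT (SD, n = 5). In WT replicates 1 to 5 the ratio was 0.299, 0.338, 0.224, 0.331 and 0.332, and every LBD11-OE library, from 0.363 upward, lay above these. The log2 ratio was higher by 0.46 in LBD11-OE than in WT (exact permutation p = 9.99e-04, adjusted p = 0.00428), and by 0.35 at the lowest with single libraries left out. It was higher by 0.22 in LBD11-OE than in LBD4-OE (exact permutation p = 0.00107, adjusted p = 0.00428). LBD4-OE was above WT by 0.25 (exact permutation p = 0.0140, adjusted p = 0.0336), a difference of 0.14 without WT replicate 3 (exact permutation, adjusted p = 0.0873), 0.24 without WT replicate 1 (exact permutation, adjusted p = 0.0873) and 0.28 without WT replicate 4 (exact permutation, adjusted p = 0.0582). The line means of the ratio were 0.411, 0.390 and 0.448 in LBD11-OE-1, LBD11-OE-2 and LBD11-OE-14, and 0.343, 0.360 and 0.371 in LBD4-OE-11, LBD4-OE-14 and LBD4-OE-17.

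**Figure D4:**
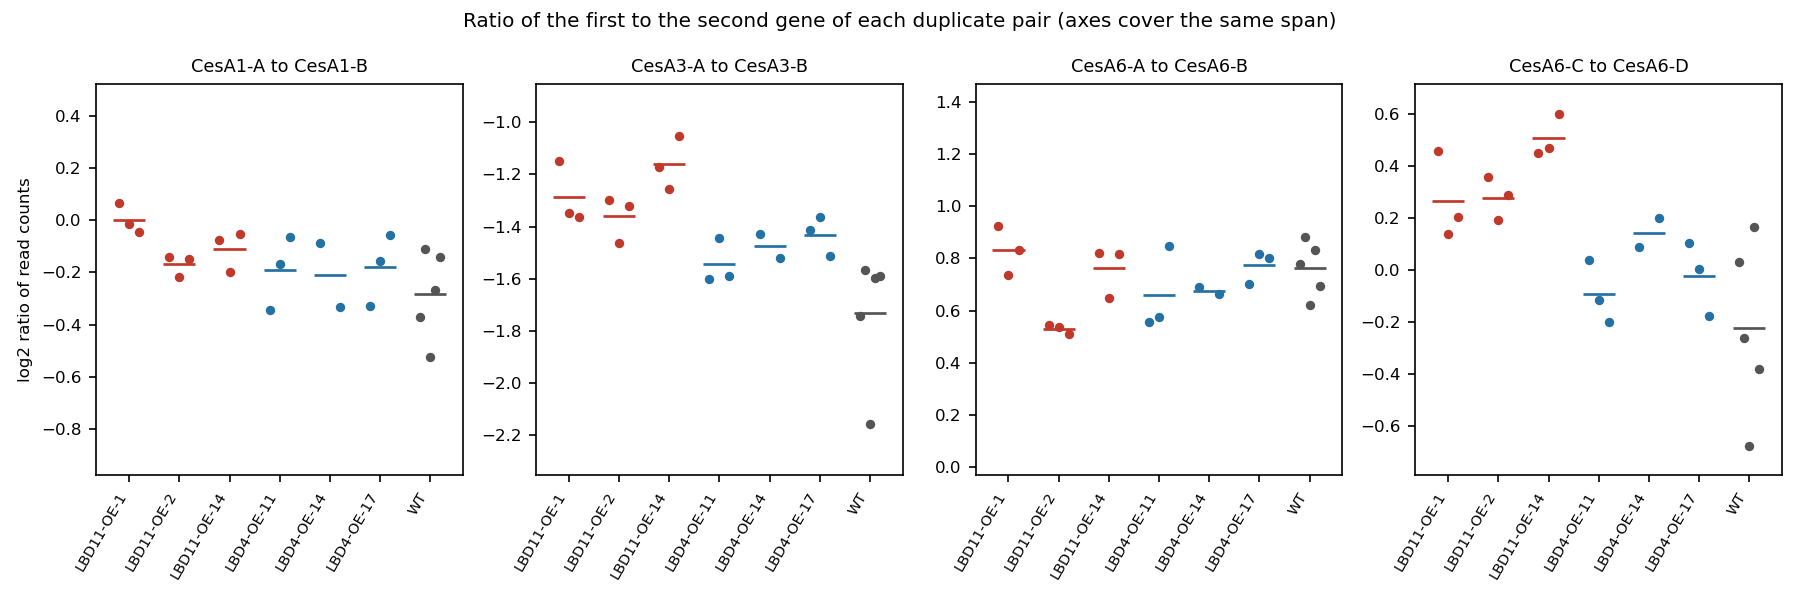
Log2 ratio of the read counts (y axis) of the first to the second gene of each pair, by library (points) and line or WT mean (bars). The panels have different limits and the same span. The ratio of CesA3-A to CesA3-B runs from -1.46 to -1.05 in LBD11-OE libraries and from -2.16 to -1.57 in WT libraries, with no overlap, whereas the groups overlap in the other 3 pairs.

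CesA6-C had 1.28 ± 0.14 reads per read of CesA6-D in LBD11-OE, 0.999 ± 0.099 in LBD4-OE and 0.874 ± 0.198 in WT (SD, n = 9, 8 and 5). CesA6-C outnumbered CesA6-D in 9 of 9 LBD11-OE libraries, the lowest ratio being 1.1. In WT replicates 1 to 5 the ratio was 1.02, 0.834, 0.626, 1.12 and 0.768, so CesA6-D had more reads in 3 of 5. The log2 ratio was higher by 0.57 in LBD11-OE than in WT (exact permutation p = 0.00200, adjusted p = 0.00599), and by 0.46 at the lowest with single libraries left out. It was higher by 0.36 in LBD11-OE than in LBD4-OE (exact permutation p = 2.47e-04, adjusted p = 0.00296). The log2 ratio in LBD4-OE was above that in WT by 0.22, which did not pass (exact permutation p = 0.143, adjusted p = 0.214), and by 0.11 without WT replicate 3. The line means were 1.21, 1.21 and 1.42 in LBD11-OE-1, LBD11-OE-2 and LBD11-OE-14, against 0.940, 1.11 and 0.988 in LBD4-OE-11, LBD4-OE-14 and LBD4-OE-17.

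The ratio of CesA1-A to CesA1-B was 0.940 ± 0.060 in LBD11-OE, 0.878 ± 0.076 in LBD4-OE and 0.827 ± 0.095 in WT (SD, n = 9, 8 and 5). Its log2 difference of 0.19 between LBD11-OE and WT passed (exact permutation p = 0.0220, adjusted p = 0.0440), and was lost when any of 9 single libraries was left out. Without WT replicate 3 it was 0.13 (exact permutation, adjusted p = 0.123). The ratio of CesA6-A to CesA6-B was 1.64 ± 0.17 in LBD11-OE, 1.64 ± 0.12 in LBD4-OE and 1.70 ± 0.12 in WT. Its log2 differences were -0.05 for LBD11-OE against WT (exact permutation, adjusted p = 0.542) and -0.05 for LBD4-OE against WT (exact permutation, adjusted p = 0.459). Within LBD11-OE this ratio was lowest in LBD11-OE-2, where the line mean was 1.44, and the 3 libraries of that line lay below every other library of the construct. All 3 belong to the smaller library set, so line and set cannot be told apart within LBD11-OE. In the same set the ratio was 1.54 in WT replicate 3 and 1.47, 1.49 and 1.80 in LBD4-OE-11 replicates 1 to 3.

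Summed over the 8 genes, the level was 1674 ± 100 CPM in LBD11-OE (SD, n = 9), 1498 ± 62.4 CPM in LBD4-OE (SD, n = 8) and 1242 ± 162 CPM in WT (SD, n = 5). The sum ran from 1486 to 1814 CPM in LBD11-OE libraries and from 1023 to 1427 CPM in WT libraries. The 4 CesA6 genes supplied 44.7% of the reads of the 8 in LBD11-OE, 43.6% in LBD4-OE and 41.5% in WT. The shares of CesA3 were 26.6%, 27.5% and 28.9%, and those of CesA1 were 28.6%, 28.9% and 29.7%, in the same order. These sums and shares are given as a description with no test.

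The 5 listed secondary wall cellulose synthases, which serve the thick walls of wood, had several times the reads of the 8. Their sum was 5509 ± 1006 CPM in LBD11-OE, 4635 ± 551 CPM in LBD4-OE and 4353 ± 518 CPM in WT (SD, n = 9, 8 and 5). By edgeR 3 of the 5 were higher in LBD11-OE than in WT, as were 16.1% of all genes, with a median log2 fold change of 0.35 over the 5. In LBD4-OE 0 passed, where 2.71% of all genes were higher, with a median of 0.14. There 1 of the 5 was past an unadjusted p of 0.05, at which 11.7% of all genes were higher. The primary wall genes thus took 23.6% of the reads of all 13 in LBD11-OE, 24.6% in LBD4-OE and 22.2% in WT. Among LBD11-OE lines, with no test, the share was 26.6 ± 0.7% in LBD11-OE-1, 24.0 ± 0.9% in LBD11-OE-2 and 20.3 ± 1.3% in LBD11-OE-14 (SD, n = 3 each). LBD11-OE-14 and LBD11-OE-1 had similar primary wall sums, 1730 and 1718 CPM, and secondary wall sums of 6810 and 4743 CPM.

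**Figure D5:**
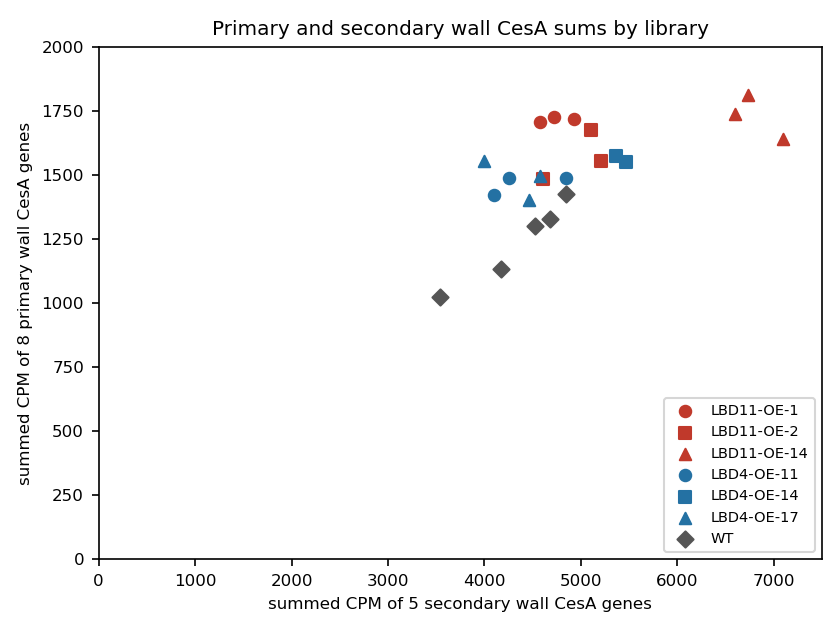
Summed CPM of the 8 primary wall genes (y axis) and of the 5 secondary wall genes (x axis) in each of the 22 libraries, with colour for the construct and shape for the line. The 3 LBD11-OE-14 libraries lie apart at 6596 to 7101 CPM of secondary wall reads, and the WT libraries, at 1023 to 1427 CPM on the y axis, lie below the other libraries of like secondary wall level, except that 2 LBD4-OE libraries, LBD4-OE-17 replicate 1 at 1403 CPM and LBD4-OE-11 replicate 1 at 1422 CPM, lie under WT replicate 2, the highest WT library.

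Other listed genes near the pathway were called in part. Of all genes tested, 16.1% were higher in LBD11-OE than in WT by edgeR, and 4.28% were called in either direction in LBD4-OE. Of the 4 genes listed for sucrose supply and KORRIGAN, the membrane endoglucanase that works with the complex, 2 were higher in LBD11-OE than in WT by edgeR, with a median log2 fold change of 0.33, and 0 passed in LBD4-OE, with a median of 0.16 and 1 past an unadjusted p of 0.05. Of the 5 listed cambium regulators 4 were tested, of which 2 were higher and 1 was lower in LBD11-OE, where 16.3% of all genes were lower, with a median of 0.26, and 0 passed in LBD4-OE, with a median of 0.17 and 1 past an unadjusted p of 0.05. The sum of the cambium regulators ran from 704 to 1175 CPM in LBD11-OE, from 662 to 932 CPM in LBD4-OE and from 473 to 820 CPM in WT. Of 3 circadian clock genes, listed as a sign of sample state, 1 was higher and 2 were lower in LBD11-OE than in WT, with log2 fold changes from -0.72 to 0.27. In LBD4-OE 0 of the 3 passed, with 1 past an unadjusted p of 0.05. At that unadjusted p by edgeR, 11.7% of all genes were higher in LBD4-OE than in WT. The share past it in either direction is not given here. The clock sum ran from 183 to 244 CPM in LBD11-OE, from 229 to 335 CPM in LBD4-OE and from 261 to 327 CPM in WT. The part of cambium amount and of sample state in the levels of the 8 cellulose synthases was not tested.

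Each gene's log2 level was compared by Pearson's r over the 22 libraries with the mean of the other 7. The values ran from 0.77 for CesA6-D to 0.95 for CesA3-A, where the median over genes tested outside the list was 0.016. With the means of the 7 groups taken out, r was 0.89 for CesA1-A, 0.84 for CesA3-A and 0.82 for CesA6-A, and 0.54 for CesA6-C and 0.58 for CesA6-B. The pair with the highest r was CesA1-A with CesA3-A, genes of different classes, at 0.94, and 0.96 with the group means taken out. The lowest were 0.51 for CesA1-B with CesA6-D over the 22 libraries and, with the group means taken out, 0.085 for CesA6-B with CesA6-C. The duplicates CesA6-C and CesA6-D had 0.64, and 0.29 with the group means taken out. The points share libraries, their depth and their scaling, and WT replicate 3 is among them, so these values are a description.

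Outside the list, the genes whose level was most like the mean of the 8 over the 22 libraries were Potri.011G024000 (r = 0.96) and Potri.003G001400 (r = 0.96). Potri.011G024000 averaged 176 ± 11.9 CPM in LBD11-OE, 153 ± 13.7 CPM in LBD4-OE and 114 ± 23.7 CPM in WT (SD, n = 9, 8 and 5), and Potri.003G001400 averaged 183 ± 11.5, 168 ± 9.85 and 144 ± 20.7 CPM in the same order. With the group means taken out, Potri.011G090900 and Potri.002G150000 were the most alike, with r = 0.94 each. The files give these genes no name.

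Of the 16 genes that flank the 8 on their chromosomes, the nearest on either side, 11 were tested. In LBD11-OE 0 of them were higher and 4 lower than in WT by edgeR, where 16.1% of all genes were higher and 16.3% lower, and in LBD4-OE 0 were called in either direction. No annotated gene overlapped any of the 8.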

How the data were processed

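Stem internode RNA was enriched for poly(A) and sequenced as read pairs (Illumina HiSeq), per the labels' protocols. Trimmomatic, HISAT2, HTSeq, Cufflinks and MultiQC are named in the submitters' processing notes, and their versions, the build and whether strand was used are not given in the sources used here. Per library, the authors deposited raw read counts per gene, as counted by HTSeq per the labels. Reads of a hybrid aspen were counted on Potri identifiers, the scheme of black cottonwood, so diverged alleles and similar copies may be undercounted.

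From the deposited counts, library sizes were scaled with TMM in edgeR 4.0.16 (R 4.3.3). Genes were filtered with filterByExpr (minimum count 10, minimum total 15) and tested with robust quasi-likelihood F tests over all 22 libraries. The construct comparisons used 3 means and 25626 genes, and the line comparisons 7 means and 26271 genes. P-values were adjusted by Benjamini-Hochberg over all genes tested, with a threshold of 0.05. Pair ratios used counts with 0.5 added (10 as the alternative), and likeness used log2 of CPM plus 0.5. DESeq2 1.42.0, limma 3.58.1 voom, other scalings, filters, subsets of libraries and blocks were alternatives. The edgeR steps were tested on simulated data, with 50 changed genes for each fold. At a fold of 1.25, 28% were recovered in LBD11-OE and 18% in LBD4-OE against WT, and 72% and 74% at 1.5. In LBD11-OE-2 and LBD4-OE-14 against WT, 2% and 6% were recovered at 1.25, and 40% and 46% at 1.5. A gene that did not pass may therefore still have changed by such amounts. Replicates differed from each other beyond sampling noise in every group, so none was merged. The 8 genes, the other lists and the tests were chosen with earlier results of these data known. The rule for named genes took all 8, and outside them the 2 genes with the highest correlation with their mean, before and after the group means were taken out. Listed genes of the pathway are given only as counts and medians. Line numbers come from the sample titles.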

Additional observations from a re-analysis of the deposited data

Results flagged for a closer look

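Among 63 groups of values screened for a sample far from the others, 4 held one. Chance gives about 1 in 20 such groups. CesA6-A was at 66.4 CPM in LBD11-OE-2 replicate 3, with the next LBD11-OE library at 75.8 CPM. The summed CesA6 level was 592 CPM in LBD4-OE-17 replicate 1, with the next LBD4-OE library at 643 CPM. In LBD11-OE-14 replicate 3 the CesA6 genes took 48.6% of the reads of the 8 primary wall genes, with the next LBD11-OE library at 45.6%, and the CesA1 genes took 26.1%, with the next at 27.9%. That library also had the highest CesA6-C level of all, 453 CPM.

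For 2 genes the effects of the constructs against WT differed from each other by edgeR's test of LBD11-OE against LBD4-OE. The LBD11-OE effect exceeded the LBD4-OE effect by 0.39 for CesA6-C and by 0.27 for CesA3-A on the log2 scale (edgeR adjusted p = 0.00347 and 0.0232).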

How the results depend on the processing

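Over 2448 recomputed values of single genes, 2287 kept their direction and side of the threshold, 117 lost their call, 37 gained one and 7 turned sign. Of the 8 genes in LBD11-OE against WT, 5 passed within the smaller library set, and 7 to 8 passed when single libraries were left out. In LBD4-OE against WT, 4 passed (2.71% of all genes higher), against 1 with line as a random block (limma voom, 0.418% of all genes). Without line LBD4-OE-14, 1 passed. Without both WT replicate 3 and LBD4-OE-11 replicate 1, 1 passed, where 418 of 25717 genes were called higher. There were 2 with only the groups compared in the fit, without line LBD4-OE-17 or in the larger set, 7 with the set as a term (5.37% of all genes), and 1 to 5 with single libraries left out. In LBD11-OE against LBD4-OE, 2 passed (8.08% of all genes higher). There was 1 with line as a random block (6.51%) or without line LBD11-OE-1, LBD11-OE-14, LBD4-OE-11 or LBD4-OE-17. Within the smaller set, with 3 libraries against 3, 0 passed (1.59% of all genes). With single libraries left out 1 to 3 passed. For the fits without single lines or single libraries, the shares of all genes are not given in this section. With the replicate number as a block, 8, 2 and 2 genes passed in these 3 comparisons, with 12.2%, 0.765% and 7.62% of all genes. Whether the numbers pair the samples is not known, and low correlations cannot exclude it. Same-numbered libraries of different groups had correlations from -0.41 to 0.32 with a median of -0.017, and 8 of 57 such pairs were above 0.1. The median for other numbers was 0.0025, and 7 of 22 libraries correlated best with their own number.

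For single lines against WT, fits of the 2 groups alone called 2 genes in LBD11-OE-2, 4 in LBD11-OE-14 and 0 in LBD4-OE-11. DESeq2 called 2 in LBD4-OE-11 (2.57% of all genes), 4 in LBD4-OE-14 and 2 in LBD4-OE-17. Within the smaller set, where WT replicate 3 is the sole WT library, log2 fold changes in LBD4-OE-11 ran from 0.25 to 0.92. The larger set gave 1 in LBD4-OE-14 (1.11% of all genes). Without both libraries named above LBD4-OE-14 had 2, where 244 of 26206 genes were called higher. Leaving out single libraries gave 5 to 8 in LBD11-OE-14, 0 to 2 in LBD4-OE-11, 0 to 3 in LBD4-OE-14 and 0 to 2 in LBD4-OE-17. For these fits and those of the 2 groups alone, the shares of all genes are not given here. A general loss or gain of calls in them cannot be told apart from one in the 8 genes.

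For pair ratios, leaving out single libraries gave log2 differences of 0.13 to 0.23 for CesA1-A to CesA1-B in LBD11-OE against WT, 0.14 to 0.29 for CesA3-A to CesA3-B in LBD4-OE against WT, and -0.026 to 0.026 for CesA6-A to CesA6-B between the constructs. Within the larger set the first was 0.17, and CesA6-A to CesA6-B in LBD11-OE against WT was 4.25e-04. Within the smaller set, where 3 libraries stand against 3 and no exact p can pass, the differences between the constructs were 0.18 for CesA3-A to CesA3-B, 0.37 for CesA6-C to CesA6-D and -0.13 for CesA6-A to CesA6-B. Single genes that turned sign between the constructs were CesA3-B at -2.34e-04, CesA6-A at -0.012 and CesA6-D at -0.12 within the smaller set. CesA6-D was also at -0.012 with total counts, -0.022 without line LBD11-OE-1 and -0.0036 to 0.046 with single libraries left out. CesA1-B in LBD4-OE-11 against WT was at -0.014 without both libraries. The library sets were chosen as a setting after seeing the data, and the cause of these changes was not tested. Each of the 8 genes had at least 967 reads in every library.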
